A study of Homo sapiens with 13 samples.

Results

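The 45 genes described here encode proteins that license, fire and copy from DNA replication origins and that work at the replication fork. They were chosen by symbol for their roles in licensing, the helicase, the polymerases, the clamp, single-strand binding, fork protection and chromatin assembly, and no measured value enters the rule. The choice was made with earlier results of these data known. All 45 were found among the 60591 genes of the count table, and all 45 were among the 19514 genes left by a filter on low counts. RNA came from 1 human cell line, TE11, labelled as esophageal squamous cell carcinoma, sampled after 48 h in 4 conditions. These were 25 µM 5-fluorouracil (5-FU) with 10 µM chloroquine (combination, n = 3), 25 µM 5-FU alone (n = 3), 10 µM chloroquine alone (n = 3) and 0.1% DMSO (vehicle, n = 4). All 4 groups were the same line in the same medium with serum, and the sources used here do not say whether the drug groups also received DMSO. Nothing in the labels tells separate cultures from repeat libraries, so the p-values cover only spread among these libraries, part of which may be technical. The series asked whether chloroquine strengthens the response to 5-FU in this cancer.

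Before S phase, the origin recognition complex, CDC6 and CDT1 load the MCM helicase onto DNA, and geminin blocks reloading by binding CDT1. At the onset of S phase the DBF4-dependent CDC7 kinase and further factors join CDC45 and the GINS complex to MCM, which makes the active helicase. Polymerase alpha with primase starts each strand, polymerase epsilon copies the leading strand and polymerase delta the lagging strand, held on DNA by the clamp PCNA, which the RFC complex loads. 5-FU blocks thymidylate synthase and enters RNA and DNA, and chloroquine, a weak base, gathers in lysosomes and keeps autophagosomes from being cleared. Many replication genes are targets of E2F transcription factors and are transcribed from late G1 into S phase.

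Library totals ran from 17834539 to 23679833 counts. COL1A2, a collagen gene, had at least 50 counts in the vehicle 4, chloroquine 1 and 2, 5-FU 2 and combination 2 libraries, against 1 to 7 in the other 8 libraries. Markers of other tissues differed among those 5 libraries. The hemoglobin gene HBB had 203, 136 and 88 counts in vehicle 4, chloroquine 1 and chloroquine 2, and 0 in 5-FU 2 and combination 2. The pancreatic list gene AMY1A had 253, 247, 146 and 292 counts in vehicle 4, chloroquine 1, chloroquine 2 and 5-FU 2. It had 2 in combination 2 and at most 4 in the other 8 libraries. In those 5 libraries the summed counts of 5 fibroblast markers were 663 to 2489, against 202 to 613 in the other 8, those of 4 leukocyte markers were 22 to 331, against 4 to 18, and those of 3 erythroid markers were 48 to 291, against 13 to 76. The part of these transcripts in the results was not tested beyond the values without those libraries. Of 13 squamous epithelium markers, 9 had at most 10 counts in each of those 8 libraries and KRT4 had 0 in all 13. KRT5, TP63, DSG3 and IVL had at most 3 counts in any library, while DSC3 had at least 2063 and SOX2 at least 192. Most of its markers thus do not bear out the labelled cell type. Each count below was also computed without the 5 libraries. CDKN1A, the p53 target that inhibits cyclin-dependent kinases, had a log2 fold change against vehicle of 2.59 ± 0.07 in the combination, 2.19 ± 0.07 in 5-FU and 1.15 ± 0.07 in chloroquine. E2F1, which activates many of these genes, had 0.28 ± 0.08 in the combination, 0.40 ± 0.08 in 5-FU and 0.18 ± 0.08 in chloroquine, and the last of these did not pass the test. In bulk RNA, fewer cells in a phase of the cycle and less RNA per cell cannot be told apart.

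Values are TMM-scaled CPM, the counts of a gene relative to the scaled size of its library. Log2 fold changes are given with their SE from 1 quasi-likelihood model of edgeR over the 13 libraries, and a gene was called, written below as rose or fell, where its p, adjusted by Benjamini and Hochberg's method across all genes tested, was under 0.05. The vehicle libraries enter all 3 comparisons with vehicle, so those comparisons are not independent and are set side by side.

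Most replication genes fell in the combination. Against vehicle, 31 of 45 fell and 4 rose in the combination, where 27.2% of all genes tested fell and 28.1% rose. The 4 that rose were PRIM1, RFC4, RPA3 and ORC6. In 5-FU alone 25 fell and 8 rose, where 29.5% of all genes tested fell and 30.8% rose. In chloroquine alone 17 fell and 5 rose, where 19.1% of all genes tested fell and 20.3% rose. Those 5 were POLE, DTL, RFC1, WDHD1 and TIMELESS, of which 2 rose without chloroquine 3 and 3 without chloroquine 1, chloroquine 2, vehicle 1, vehicle 3, 5-FU 3, combination 1 or combination 2, each left out alone. The median log2 fold change of the 45 genes was -0.28 in the combination, -0.18 in 5-FU and -0.13 in chloroquine, against 0.01, 0.01 and 0.02 for all genes tested. Most changes were small, and with a required log2 fold change of 0.5 or more in size, 12 genes fell and 1 rose in the combination, 4 fell and 3 rose in 5-FU, and 1 fell and 0 rose in chloroquine. Without the 5 libraries with COL1A2, all 35 genes called in the combination kept their call and direction, as did 30 of 33 in 5-FU and 13 of 22 in chloroquine, where 1 chloroquine library remained.

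The combination and vehicle libraries did not overlap for 39 of the 45 genes, 33 of which were lower and 6 higher in the combination, where 28.8% and 30.0% of all genes tested were so placed. The share of a library's raw counts assigned to the 45 genes was 0.728% to 0.740% in the combination, 0.819% to 0.861% in 5-FU, 0.790% to 0.793% in chloroquine and 0.790% to 0.799% in vehicle libraries. By this raw share every combination library lay below and every 5-FU library above all vehicle libraries. With library size as the only scaling, the median of all genes tested moved to 0.15 in the combination, 0.20 in 5-FU and 0.12 in chloroquine, and that of the 45 genes to -0.13, 0.02 and -0.04. Under that scaling 21 fell and 8 rose in the combination, 11 fell and 18 rose in 5-FU, and 12 fell and 8 rose in chloroquine. The calls lost under it were those of GMNN, MCM2, CDC7, GINS2, GINS3, POLD3, POLE, RFC5, TIPIN and SLBP in the combination, of CDC6, MCM7, MCM10, CDC45, CDC7, GINS3, GINS4, PRIM2, POLD3, RFC1, RPA1, CHAF1B, SLBP and DTL in 5-FU, and of ORC1, MCM6, MCM10, POLA2 and POLD3 in chloroquine. Among all genes tested, 3659 fell and 7422 rose in the combination under it, against 5312 and 5489 with TMM. The same counts were 3669 and 8291 in 5-FU, against 5756 and 6003 with TMM, and 2410 and 5435 in chloroquine, against 3730 and 3952 with TMM.

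**Figure D1:**
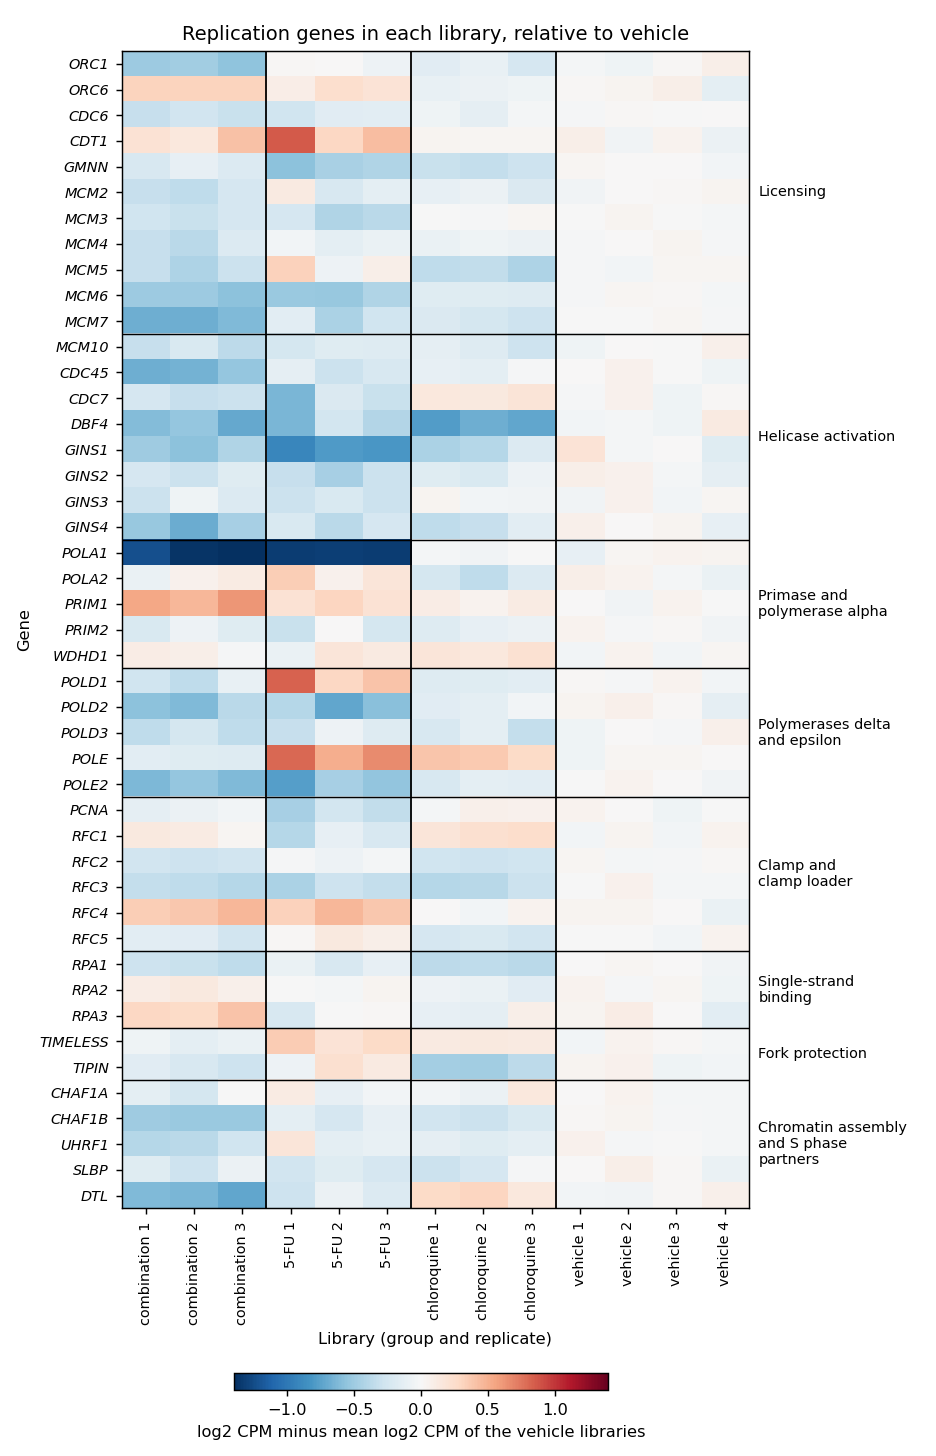
Expression of the 45 replication genes in each library. Colour is log2 CPM minus the mean log2 CPM of the 4 vehicle libraries, rows are genes grouped by role, and columns are the 3 combination, 3 5-FU, 3 chloroquine and 4 vehicle libraries. POLA1 is the deepest row in the combination and 5-FU, and POLE is above vehicle in 5-FU and chloroquine but below it in the combination.

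Promoters were examined because many of the 45 genes are known E2F targets. RefSeq promoter sequences (GRCh38.p14, 250 bases before to 50 after the start) matched 39 of the 45 genes by symbol. An E2F-type motif, spelled TTTCCCGC, TTTCGCGC, TTTGCCGC or TTTGGCGC on either strand, was present in 17 of the 39 (43.6%), against 3.33% of all 27305 promoters of the same length. The CCAAT box, on either strand, was present in 23 of the 39 (59.0%), against 35.7% of all promoters, and both were present in 11 (28.2%), against 1.29%. The median GC content was 66% in the 39 promoters and 58.3% in all promoters. In the 39 promoters, E2F-type motifs overlapped each other in 2, CCAAT boxes overlapped each other in 2, and the motifs of both kinds overlapped in 1. Against vehicle, the median log2 fold change of the 17 genes with the E2F-type motif and of the 22 without it was -0.30 and -0.21 in the combination, -0.28 and -0.09 in 5-FU, and -0.13 and -0.15 in chloroquine (the vehicle libraries are shared). The 250 bases before the start are printed for 4 genes that carry both motifs and respond in different ways, 5′ to 3′ on the strand of the gene. Capitals mark the E2F-type motif, here read as GCGCCAAA or another of its spellings, and the CCAAT box, which reads ATTGG where it lies on the opposite strand. POLE was called in opposite directions in 5-FU and the combination, POLA1 fell in both conditions with 5-FU, DTL was lower in the combination than in either single drug, and MCM7 fell in all 3 treatments.
POLE, minus strand of chr12:132687343-132687592: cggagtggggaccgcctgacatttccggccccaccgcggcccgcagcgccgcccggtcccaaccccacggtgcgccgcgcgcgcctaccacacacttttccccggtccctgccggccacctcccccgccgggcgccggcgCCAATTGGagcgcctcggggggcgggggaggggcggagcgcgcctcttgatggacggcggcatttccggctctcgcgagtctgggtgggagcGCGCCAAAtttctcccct
POLA1, plus strand of chrX:24693668-24693917: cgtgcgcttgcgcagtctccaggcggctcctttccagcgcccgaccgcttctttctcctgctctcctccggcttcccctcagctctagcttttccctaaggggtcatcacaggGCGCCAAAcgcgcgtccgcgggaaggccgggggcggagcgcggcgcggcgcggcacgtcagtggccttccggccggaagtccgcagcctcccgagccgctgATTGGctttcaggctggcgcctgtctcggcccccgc
DTL, plus strand of chr1:212035498-212035747: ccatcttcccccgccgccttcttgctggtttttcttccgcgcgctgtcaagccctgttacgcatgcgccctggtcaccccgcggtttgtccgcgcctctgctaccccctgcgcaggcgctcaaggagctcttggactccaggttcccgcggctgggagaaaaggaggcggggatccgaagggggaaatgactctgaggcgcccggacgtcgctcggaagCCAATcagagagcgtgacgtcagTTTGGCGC
MCM7, minus strand of chr7:100101398-100101647: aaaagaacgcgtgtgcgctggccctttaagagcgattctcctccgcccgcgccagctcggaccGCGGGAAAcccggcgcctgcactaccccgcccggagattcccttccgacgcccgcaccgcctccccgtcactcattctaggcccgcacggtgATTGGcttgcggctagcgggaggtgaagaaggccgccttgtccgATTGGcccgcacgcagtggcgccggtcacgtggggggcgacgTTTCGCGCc
In POLE the E2F-type motif ended 11 bases before the start and a pair of CCAAT boxes overlapped on opposite strands from 110 to 103 bases before it. In POLA1 the E2F-type motif lay 137 to 130 bases before the start. In DTL it lay 8 to 1 bases before the start, and in MCM7 9 to 2 bases before it with a further copy 187 to 180 bases before it. A match describes the sequence only.

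The licensing genes, which load the helicase, mostly fell in the combination. Of 11, 9 fell and 1 rose there, 5 fell and 2 rose in 5-FU, and 5 fell and 0 rose in chloroquine. Among all genes tested, 27.2% fell and 28.1% rose in the combination, 29.5% and 30.8% in 5-FU, and 19.1% and 20.3% in chloroquine. The same shares stand beside the counts of the other roles below. ORC1, the ATPase subunit of the origin recognition complex, had 60.9, 62.1 and 58.6 CPM in the combination, 87.4, 87.1 and 82.8 in 5-FU, 77.9, 80.5 and 73.7 in chloroquine and 84.8, 83.0, 87.7 and 91.5 in vehicle libraries. The combination libraries lay below all others, and 5-FU and vehicle libraries overlapped. ORC1 fell in the combination, with a log2 fold change of -0.52 ± 0.05 (adjusted p = 1.16e-06) and had -0.02 ± 0.05 in 5-FU (adjusted p = 0.796), a value that was 0.17 with library size as the only scaling. ORC6, another subunit of the complex, had 122, 122 and 122 CPM in the combination, 105, 116 and 112 in 5-FU, 91.2, 92.6 and 94.1 in chloroquine and 99.0, 101, 104 and 89.6 in vehicle libraries. The combination libraries lay above all others, with a log2 fold change against vehicle of 0.31 ± 0.05 (adjusted p = 1.98e-04).

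CDC6, the ATPase that brings the helicase to the origin, had 118, 122 and 118 CPM in the combination, 121, 132 and 132 in 5-FU, 141, 135 and 144 in chloroquine and 146, 148, 146 and 147 in vehicle libraries. CDC6 fell in the combination (-0.30 ± 0.05, adjusted p = 5.63e-05) and in 5-FU (-0.19 ± 0.05, adjusted p = 0.00183), with no overlap with vehicle in either, and the 5-FU call was lost with library size as the only scaling and with a filter at 10 CPM. CDT1, which delivers the helicase with CDC6, had 174, 167 and 200.5 CPM in the combination, 274, 184 and 204 in 5-FU, 155, 153 and 154 in chloroquine and 159, 146, 156 and 142 in vehicle libraries. It rose in 5-FU (0.55 ± 0.11, adjusted p = 4.22e-04), where 5-FU 1 stood above the other 2 libraries. The rise was 0.36 without 5-FU 1 and 0.20 after a correction of each library for transcript GC content, which was chosen after the values were seen. In the combination CDT1 did not pass the test (0.26 ± 0.11, adjusted p = 0.0523), although all 3 libraries lay above vehicle, and with the GC correction it was called higher (0.27). GMNN, which encodes the CDT1 inhibitor geminin, had 138, 148 and 141 CPM in the combination, 108, 117 and 119.8 in 5-FU, 129.6, 127 and 132 in chloroquine and 164, 162, 161 and 157 in vehicle libraries. GMNN fell in every treatment, with a log2 fold change of -0.18 ± 0.05 in the combination, -0.49 ± 0.05 in 5-FU and -0.31 ± 0.05 in chloroquine. The combination call was lost with library size as the only scaling and in the 5 libraries with COL1A2 alone.

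All 6 genes of the MCM2 to MCM7 helicase fell in the combination, with log2 fold changes between -0.66 and -0.28 and a median of -0.33. MCM7 had 473, 476 and 496 CPM in the combination, 687, 561 and 628 in 5-FU, 662, 640.4 and 623 in chloroquine and 757, 761, 776 and 750.0 in vehicle libraries. Its combination libraries lay below all others, and its log2 fold change against vehicle was -0.66 ± 0.06 (adjusted p = 1.85e-07). In the single drugs MCM7 had -0.28 in 5-FU and -0.25 in chloroquine. The 5-FU value was -0.47 with the GC correction and was not called with library size as the only scaling. MCM5, another subunit, had 251, 233 and 256 CPM in the combination, 393, 299 and 332 in 5-FU, 246, 247 and 233 in chloroquine and 311, 306, 321 and 319 in vehicle libraries. MCM5 fell in the combination (-0.35 ± 0.07) and in chloroquine (-0.38 ± 0.07), while its 5-FU libraries overlapped with vehicle (0.12 ± 0.07, adjusted p = 0.165). MCM2, a subunit phosphorylated by CDC7, had 354, 345 and 375 CPM in the combination, 483, 379 and 402 in 5-FU, 408, 417 and 385 in chloroquine and 428, 443, 446 and 452 in vehicle libraries. MCM2 fell in the combination (-0.30 ± 0.07, adjusted p = 0.00150), a call lost with library size as the only scaling, and its single-drug values did not pass the test (-0.07 ± 0.07 in 5-FU and -0.13 ± 0.07 in chloroquine). With the GC correction MCM2 had -0.28 in the combination, -0.27 in 5-FU and -0.15 in chloroquine, all called, and both single-drug values were also called without 5-FU 1. MCM6 fell in all 3 treatments, with 267 to 281 CPM in the combination, 275 to 298 in 5-FU, 352 to 355 in chloroquine and 392 to 406 in vehicle. Its chloroquine call was lost with library size as the only scaling, with no filter and without the 5 libraries with COL1A2. MCM3 fell in the combination (-0.28) and 5-FU (-0.34), where neither overlapped with vehicle. MCM4 fell in the combination (-0.29) and had -0.09 in 5-FU, a value that was 0.10 with library size as the only scaling.

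The 8 genes of helicase activation fell together, with 8 of 8 lower in the combination, 8 of 8 in 5-FU and 4 of 8 in chloroquine. Under library size as the only scaling, CDC45, CDC7, GINS3, GINS4 and MCM10 no longer passed the test in 5-FU, and GINS2, GINS3 and CDC7 no longer passed in the combination. CDC45, which joins MCM and GINS in the active helicase, had 79.2, 80.4 and 87.2 CPM in the combination, 116, 103 and 109 in 5-FU, 117, 116 and 126 in chloroquine and 128, 132, 127 and 122 in vehicle libraries. The combination libraries were lowest and did not overlap with any other, with a log2 fold change against vehicle of -0.63 ± 0.06 (adjusted p = 3.91e-07). In the single drugs CDC45 had -0.22 ± 0.06 in 5-FU (adjusted p = 0.00382) and -0.09 ± 0.06 in chloroquine (adjusted p = 0.208). MCM10, which acts when the helicase starts to move, had 129.9, 140.1 and 127 CPM in the combination, 138, 145 and 144 in 5-FU, 149, 144 and 133 in chloroquine and 156, 163, 162 and 171 in vehicle libraries. MCM10 fell, with log2 fold changes of -0.30, -0.20 and -0.20 in the combination, 5-FU and chloroquine. The 3 treatments overlapped with each other for MCM10, and none overlapped with vehicle. The 5-FU call was lost with the GC correction (-0.09), with a filter at 10 CPM and with library size as the only scaling, which also lost the chloroquine call.

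CDC7 and DBF4 are the kinase that fires loaded helicases and its activating subunit. CDC7 had 178, 168 and 170.2 CPM in the combination, 135, 183 and 169 in 5-FU, 232, 231 and 239 in chloroquine and 207, 219, 201 and 213 in vehicle libraries. It fell in the combination (-0.29 ± 0.08) and in 5-FU (-0.37 ± 0.08) and in chloroquine had 0.15 ± 0.08 (adjusted p = 0.127). The 5-FU value was -0.22 with the GC correction, under which chloroquine was called as well (0.18). DBF4 had 48.6, 50.6 and 45.05 CPM in the combination, 47.5, 61.8 and 55.5 in 5-FU, 43.0, 46.1 and 44.6 in chloroquine and 71.9, 72.3, 71.0 and 80.5 in vehicle libraries. DBF4 was lower than vehicle in every treated library and its log2 fold change was -0.62 ± 0.08 in the combination, -0.43 ± 0.08 in 5-FU (-0.28 with the GC correction) and -0.73 ± 0.08 in chloroquine. A pseudogene, DBF4P1, was listed with 256 to 521 counts, against 789 to 1562 for DBF4, and the sources used here do not say how reads were divided between them.

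All 4 GINS genes fell in the combination and in 5-FU. GINS1 had 84.1, 80.2 and 89.2 CPM in the combination, 63.1, 68.6 and 67.6 in 5-FU, 87.7, 90.5 and 104 in chloroquine and 136, 117, 119.7 and 106 in vehicle libraries. The 5-FU libraries lay below all others, and the log2 fold change against vehicle was -0.50 ± 0.08 in the combination, -0.85 ± 0.08 in 5-FU and -0.35 ± 0.08 in chloroquine. GINS2 showed 117 to 129 CPM in the combination, 105 to 117 in 5-FU, 125 to 137 in chloroquine and 133 to 153 in vehicle, so that the 2 treatments with 5-FU lay below vehicle. GINS4 ranged over 46.8 to 54.7 CPM in the combination, 58.4 to 65.5 in 5-FU, 59.0 to 68.2 in chloroquine and 69.8 to 79.6 in vehicle and was lowest in the combination. GINS3 fell, with log2 fold changes of -0.18 in the combination and -0.27 in 5-FU, and its call in the combination was lost without vehicle 2 or combination 1.

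**Figure D2:**
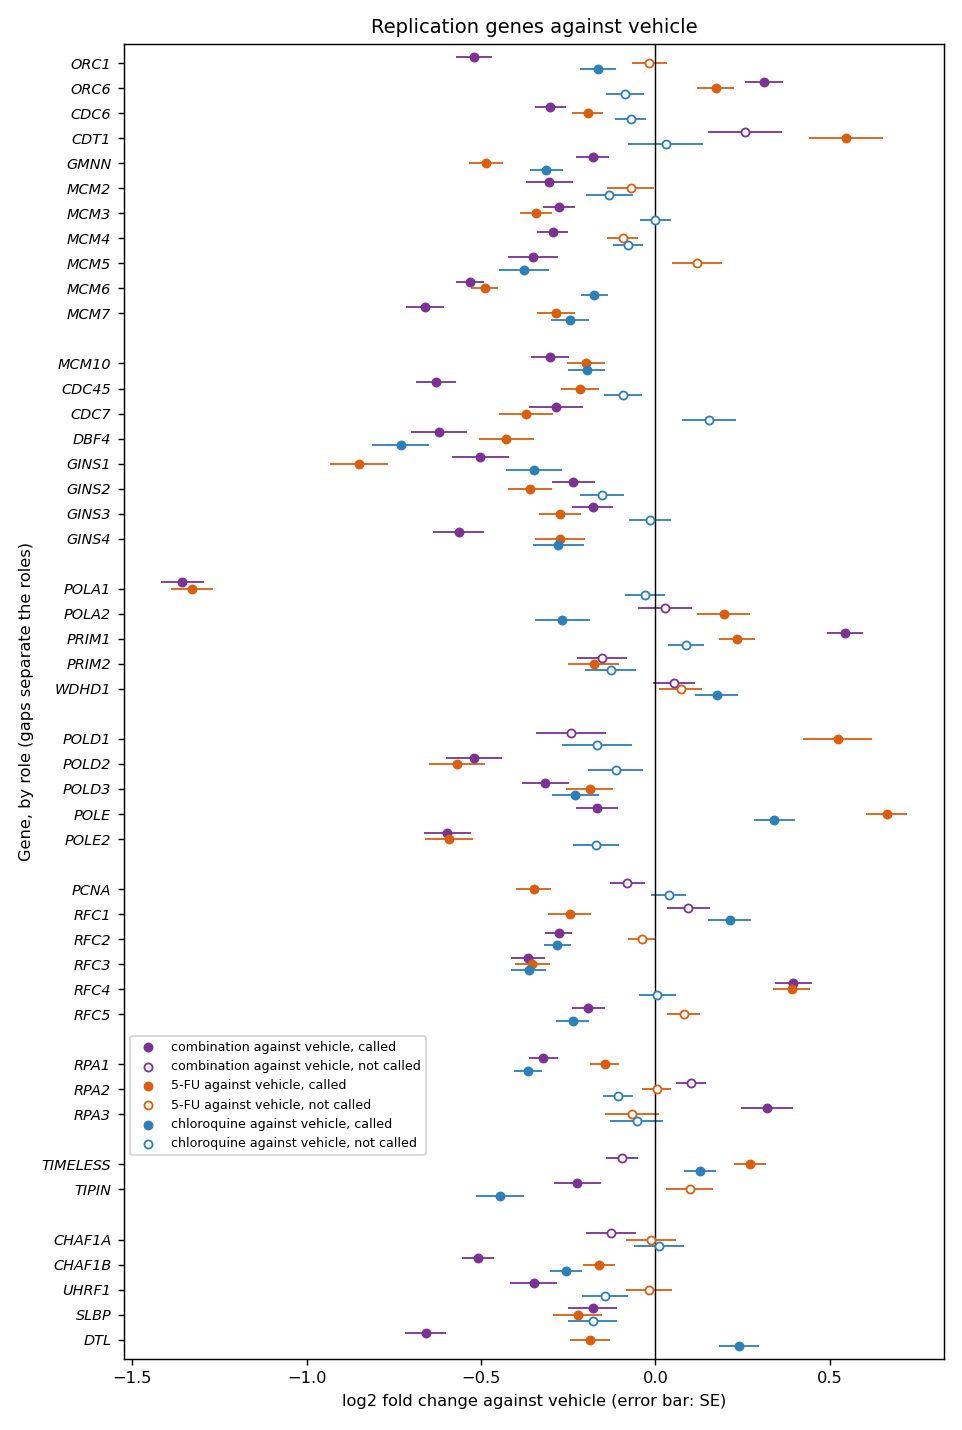
Log2 fold change of each replication gene against vehicle, with its SE, in the combination, 5-FU and chloroquine. Filled points passed the test at an adjusted p under 0.05 and open points did not. Most points lie left of 0, POLA1 is near -1.3 in both conditions with 5-FU, and POLE lies right of 0 in the single drugs and left of it in the combination.

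The genes of the polymerase alpha and primase complex differed widely, and 1 of 5 fell and 1 rose in the combination. POLA1, the catalytic subunit of polymerase alpha, had 55.9, 50.7 and 47.3 CPM in the combination, 52.1, 52.7 and 52.1 in 5-FU, 129, 127 and 131 in chloroquine and 121, 134, 136 and 135 in vehicle libraries. The combination and 5-FU libraries lay far below every chloroquine and vehicle library, and chloroquine and vehicle overlapped. The log2 fold change against vehicle was -1.36 ± 0.06 in the combination (adjusted p = 4.54e-10), -1.33 ± 0.06 in 5-FU (adjusted p = 4.67e-10) and -0.03 ± 0.06 in chloroquine (adjusted p = 0.735). PRIM1, the catalytic subunit of primase, had 74.5, 70.8 and 78.9 CPM in the combination, 59.0, 63.3 and 58.8 in 5-FU, 55.1, 53.2 and 55.4 in chloroquine and 51.6, 49.5, 53.0 and 51.1 in vehicle libraries. It rose in the combination (0.54 ± 0.05, adjusted p = 6.93e-07) and in 5-FU (0.23 ± 0.05, adjusted p = 0.00140), and all treated libraries lay above vehicle. The 5-FU value of PRIM1 was 0.38 with the GC correction. POLA2, the second subunit of polymerase alpha, ranged over 28.3 to 32.7 CPM in the combination, 31.5 to 38.5 in 5-FU, 23.6 to 26.5 in chloroquine and 28.4 to 31.9 in vehicle. POLA2 was called higher in 5-FU (0.20 ± 0.08) and lower in chloroquine (-0.27 ± 0.08), and neither call held under every alternative. The first was lost without 5-FU 1, 5-FU 3, vehicle 3, vehicle 4, chloroquine 1, chloroquine 3 or combination 2, with the GC correction (0.09), with no filter on low counts, with the replicate number as a block over all libraries and in the 5 libraries with COL1A2 alone. The second was lost with library size as the only scaling, without chloroquine 2 and without the 5 libraries. PRIM2, the large primase subunit, fell in 5-FU (-0.18 ± 0.07, adjusted p = 0.0476). Its call was kept without chloroquine 3, 5-FU 2 or combination 2 and lost without any other 1 library, including each of the 4 vehicle libraries. It was also lost with DESeq2, with a filter at 10 CPM and with the GC correction (-0.05), and its value was 0.016 under library size as the only scaling. WDHD1, which links the helicase to polymerase alpha, rose in chloroquine (0.18 ± 0.06, adjusted p = 0.0335). This call was lost without vehicle 1, vehicle 3, 5-FU 3, combination 1, combination 2 or any 1 chloroquine library. It was also lost with RLE size factors, with no filter, with the replicate block and without the 5 libraries with COL1A2.

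Polymerases epsilon and delta differed between their subunits. POLE, the catalytic subunit of polymerase epsilon, had 200.4, 197 and 195 CPM in the combination, 386, 316 and 351 in 5-FU, 291, 286 and 266 in chloroquine and 212, 227, 226 and 223 in vehicle libraries. The combination libraries lay below vehicle, chloroquine above vehicle and 5-FU above chloroquine, with no overlap between any 2 groups. POLE fell in the combination (-0.17 ± 0.06, adjusted p = 0.0281) and rose in 5-FU (0.66 ± 0.06, adjusted p = 2.86e-07) and in chloroquine (0.34 ± 0.06, adjusted p = 4.37e-04). It was the 1 gene of the 45 called in opposite directions in the combination and in 5-FU, where 2.70% of all genes tested were. The small fall was not called without vehicle 2, vehicle 3, combination 2 or combination 3, each left out alone, nor with library size as the only scaling, with no filter, with a filter at 10 CPM or with the replicate block over all libraries. POLE2, the second epsilon subunit, had 19.9, 21.3 and 20.1 CPM in the combination, 18.1, 22.3 and 21.0 in 5-FU, 26.4, 28.0 and 28.0 in chloroquine and 30.8, 32.0, 31.1 and 29.7 in vehicle libraries. POLE2 fell in the combination (-0.60 ± 0.07) and in 5-FU (-0.59 ± 0.07), and in chloroquine it did not pass the test (-0.17 ± 0.07, adjusted p = 0.0556), though it was called with the GC correction (-0.15).

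POLD1, the catalytic subunit of polymerase delta, had 131, 124 and 148 CPM in the combination, 282, 193 and 209.8 in 5-FU, 139.7, 141 and 143 in chloroquine and 160.3, 157, 164 and 155 in vehicle libraries. All 3 5-FU libraries lay above all others, with 5-FU 1 far above the other 2. POLD1 rose in 5-FU, with a log2 fold change of 0.52 ± 0.10 (adjusted p = 3.49e-04), a value that was 0.34 without 5-FU 1 and 0.18 after the GC correction. In the combination it had -0.24 ± 0.10 (adjusted p = 0.0550) with all 3 libraries below vehicle, and it was called with the GC correction (-0.22). POLD2, an accessory subunit, went the other way in 5-FU, with 90.9 to 108 CPM in the combination, 84.3 to 106 in 5-FU, 125 to 136 in chloroquine and 128 to 147 in vehicle. Its log2 fold change was -0.52 ± 0.08 in the combination and -0.57 ± 0.08 in 5-FU, both called. POLD3, a further accessory subunit, fell in all 3 treatments, with -0.32, -0.19 and -0.23 in the combination, 5-FU and chloroquine, although its 5-FU value was 0.0036 with library size as the only scaling, under which none of the 3 was called, and -0.08 and not called with the GC correction.

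**Figure D3:**
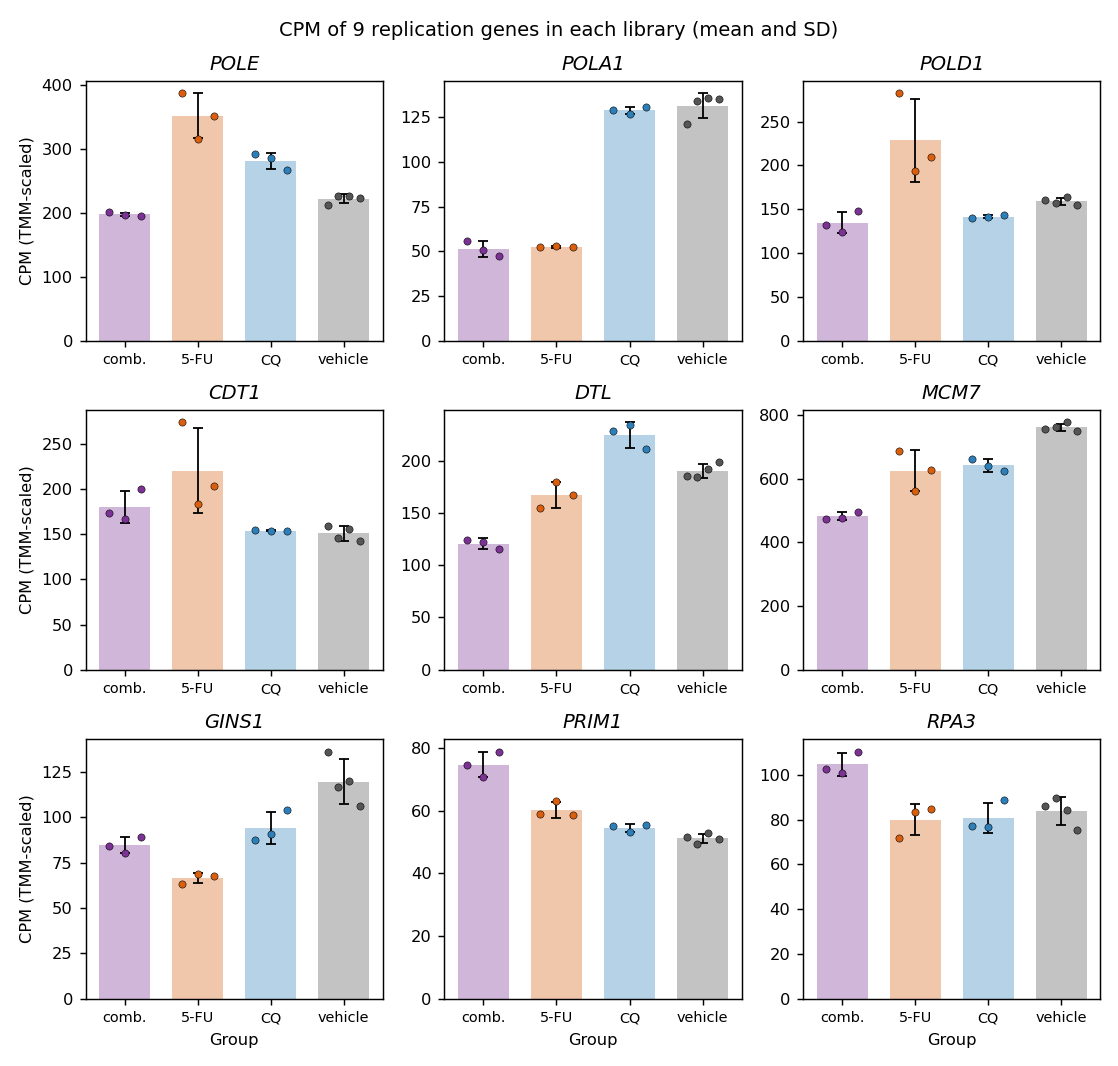
CPM of 9 replication genes in each library. Bars and error bars are the mean and SD of 3 combination (comb.), 3 5-FU, 3 chloroquine (CQ) and 4 vehicle libraries, points are libraries, and each axis starts at 0. POLA1 is low in both conditions with 5-FU, POLE is high in 5-FU and chloroquine and lowest in the combination, and PRIM1 and RPA3 are highest in the combination.

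The clamp and its loader gave mixed results, with 3 of 6 genes lower and 1 higher in the combination. PCNA, the sliding clamp, had 487, 500.1 and 518 CPM in the combination, 386, 445 and 419 in 5-FU, 522, 558 and 555 in chloroquine and 549, 533, 510.1 and 529.6 in vehicle libraries. PCNA did not pass the test in the combination (-0.08 ± 0.05, adjusted p = 0.188), whose libraries overlapped with vehicle, and fell in 5-FU (-0.35 ± 0.05, adjusted p = 2.89e-05), where all 3 libraries lay below all others. RFC1, the large subunit of the clamp loader, had 181, 178 and 168 CPM in the combination, 124, 152 and 141 in 5-FU, 185, 192 and 195 in chloroquine and 159.8, 169, 159.9 and 171 in vehicle libraries. It was called in opposite directions in the single drugs, lower in 5-FU (-0.25 ± 0.06, adjusted p = 0.00306) and higher in chloroquine (0.21 ± 0.06, adjusted p = 0.0123), the first of which was lost with library size as the only scaling and was -0.12 with the GC correction, and the second was lost without chloroquine 3. RFC1 in the combination had 0.09 ± 0.06 (adjusted p = 0.204) and overlapped with vehicle. RFC4, a small subunit, rose in both conditions with 5-FU, with 139, 142 and 152 CPM in the combination, 137, 152 and 143 in 5-FU, 110.2, 107 and 114 in chloroquine and 113, 113, 110.3 and 103 in vehicle libraries. RFC4 had 0.40 ± 0.05 in the combination and 0.39 ± 0.05 in 5-FU, and chloroquine overlapped with vehicle (0.01 ± 0.05). Of the other small subunits, RFC3 fell in all 3 treatments, with log2 fold changes of -0.37 in the combination, -0.35 in 5-FU and -0.36 in chloroquine, and the 5-FU value was -0.20 with the GC correction. RFC2 fell in the combination (-0.28) and chloroquine (-0.28), and so did RFC5 (-0.19 and -0.24), and neither passed the test in 5-FU, where RFC2 had -0.04 and, with library size as the only scaling, 0.15.

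The 3 subunits of RPA, the complex that covers single-stranded DNA, differed as well. RPA1, the large subunit, fell in all 3 treatments, with 284 to 296 CPM in the combination, 311 to 339.6 in 5-FU, 280.4 to 284 in chloroquine and 351 to 371 in vehicle. Its fall in 5-FU (-0.14) was 0.047 with library size as the only scaling. The call was also lost with no filter, with a filter at 10 CPM and without the 5 libraries with COL1A2. RPA3, the small subunit, had 103, 101 and 110.5 CPM in the combination, 71.9, 83.6 and 84.6 in 5-FU, 77.3, 76.7 and 88.7 in chloroquine and 86.1, 89.8, 84.2 and 75.5 in vehicle libraries. The combination libraries lay above all others, and RPA3 rose there (0.32 ± 0.08, adjusted p = 0.00226), while 5-FU (-0.07 ± 0.08) and chloroquine (-0.05 ± 0.08) did not pass the test. RPA2, the middle subunit, was not called against vehicle in any treatment, with 0.10 in the combination, 0.00 in 5-FU and -0.11 in chloroquine, but with the GC correction it was called in the combination (0.10) and in chloroquine (-0.11).

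TIMELESS and TIPIN, partners that travel with the fork and protect it, were called in different treatments. TIMELESS showed 206 to 218 CPM in the combination, 259.6 to 291 in 5-FU, 248 to 250.2 in chloroquine and 221 to 236 in vehicle. TIMELESS had -0.10 in the combination, which did not pass the test. It rose in 5-FU (0.27 ± 0.05, adjusted p = 1.28e-04) and by less in chloroquine (0.13 ± 0.05, adjusted p = 0.0367). The chloroquine call was lost without any 1 chloroquine library, and without vehicle 1, vehicle 3, vehicle 4, 5-FU 3, combination 1 or combination 2. It was also lost with RLE size factors, with no filter, with the replicate block and without the 5 libraries with COL1A2. TIPIN had 79.9, 76.2 and 72.9 CPM in the combination, 84.6, 104 and 97.5 in 5-FU, 63.9, 63.6 and 69.0 in chloroquine and 91.5, 92.6, 85.6 and 86.8 in vehicle libraries. TIPIN fell in the combination (-0.22 ± 0.07, adjusted p = 0.0116) and in chloroquine (-0.45 ± 0.07, adjusted p = 1.59e-04), and in 5-FU it overlapped with vehicle. The combination call of TIPIN was lost with library size as the only scaling and without combination 3, and its 5-FU value was called with the GC correction (0.23).

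Among partners of chromatin assembly and S phase, 4 of 5 fell in the combination. DTL, the substrate receptor by which a ubiquitin ligase destroys CDT1 on DNA-bound PCNA, had 124, 123 and 115 CPM in the combination, 155, 179.7 and 167 in 5-FU, 229, 234 and 211 in chloroquine and 185, 185, 192 and 199 in vehicle libraries. Chloroquine libraries lay above vehicle, 5-FU libraries below vehicle and combination libraries below both, without overlap. DTL fell in the combination (-0.66 ± 0.06, adjusted p = 3.47e-07) and rose in chloroquine (0.24 ± 0.06, adjusted p = 0.00430). It also fell in 5-FU (-0.19 ± 0.06, adjusted p = 0.0114), a value that was 0.0046 with library size as the only scaling and -0.07 with the GC correction. The rise was not called without the 5 libraries with COL1A2 (0.17, adjusted p = 0.166), where 1 chloroquine library remained. UHRF1, which guides maintenance methylation of new DNA, had 102, 103 and 110.5 CPM in the combination, 150.4, 122 and 124 in 5-FU, 122, 119 and 121 in chloroquine and 139.7, 132, 133 and 131 in vehicle libraries. UHRF1 fell in the combination (-0.35 ± 0.07) and its single-drug values did not pass the test (-0.02 ± 0.07 in 5-FU, which was 0.17 with library size as the only scaling, and -0.15 ± 0.07 in chloroquine). With the GC correction both single-drug values of UHRF1 were called (-0.13 in 5-FU and -0.17 in chloroquine). SLBP, which binds histone mRNA, had 165, 151 and 175 CPM in the combination, 154, 164 and 157 in 5-FU, 150.2, 157 and 183 in chloroquine and 185, 196, 186 and 173 in vehicle libraries. SLBP passed the test in the combination (-0.18 ± 0.07, adjusted p = 0.0419) and in 5-FU (-0.22 ± 0.07, adjusted p = 0.0132), and the first call was lost without vehicle 1, 2 or 3 or combination 1 or 2. CHAF1B, the middle subunit of chromatin assembly factor 1, ranged over 86.3 to 87.4 CPM in the combination, 105 to 114 in 5-FU, 101 to 107 in chloroquine and 121 to 127 in vehicle and fell in all 3, although its 5-FU value was 0.031 with library size as the only scaling. The 5-FU call of CHAF1B was also lost with a filter at 10 CPM. Without the 5 libraries with COL1A2, where 1 chloroquine library remained, its 5-FU and chloroquine calls were lost. CHAF1A, the large subunit of the same factor, was not called in any of the 3 treatments, with -0.13 in the combination, -0.01 in 5-FU (0.18 with library size as the only scaling) and 0.01 in chloroquine.

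Against 5-FU alone, more of these genes were lower than higher in the combination. In the combination 17 of 45 were lower and 6 higher than in 5-FU, where 18.3% of all genes tested were lower and 20.2% higher. POLE had the lowest value, with a log2 difference of -0.83 ± 0.06 (adjusted p = 4.98e-07), followed by POLD1 (-0.76 ± 0.11, adjusted p = 7.69e-05) and ORC1 (-0.50 ± 0.06, adjusted p = 1.02e-05). With the GC correction these differences were -0.65, -0.40 and -0.45, and all 3 remained called. MCM7 (-0.38), CDC45 (-0.41), MCM5 (-0.47), DTL (-0.47), CHAF1B (-0.35) and both fork protection genes were also lower, and with the correction MCM7 had -0.17 and MCM5 had -0.28. The 6 higher genes were RPA3 (0.39 ± 0.08), GINS1 (0.35 ± 0.09), RFC1 (0.34 ± 0.07), PRIM1 (0.31), GMNN (0.31) and PCNA (0.27). With the correction GINS1 and GMNN were each 0.23 and PRIM1 was 0.17. POLA1 had -0.03 ± 0.06, with a 95% interval of -0.17 to 0.11. MCM2 was called lower (-0.23 ± 0.07, adjusted p = 0.0187), a call lost without 5-FU 1, combination 1 or combination 2 and with the correction (-0.01). With the replicate number as a block in these 6 libraries, RPA1 was no longer called and CDT1 was called lower, while the other 22 calls kept their direction. CDT1 was 0.07 with the GC correction and was not called under it, with or without the block.

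Against chloroquine alone, 18 of 45 were lower and 8 higher in the combination, where 25.7% of all genes tested were lower and 24.8% higher. POLA1 was lowest (-1.33 ± 0.06, adjusted p = 2.28e-09), followed by DTL (-0.90 ± 0.06, adjusted p = 5.06e-08) and CDC45 (-0.54 ± 0.06, adjusted p = 4.66e-06). PRIM1 (0.45 ± 0.06), ORC6 (0.40 ± 0.06) and RFC4 (0.39 ± 0.06) were the highest. The helicase genes MCM3, MCM4, MCM6 and MCM7 were lower, between -0.41 and -0.22, and the clamp loader genes other than RFC4 were not called. Without the 5 libraries with COL1A2, 18 of the 26 calls kept their direction and 8 were lost, with 1 chloroquine library left.

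Between the single drugs, 15 of 45 were higher and 14 lower in 5-FU than in chloroquine, where 27.1% of all genes tested were higher and 27.6% lower. POLD1 (0.69 ± 0.11, adjusted p = 7.33e-05), TIPIN (0.54 ± 0.07, adjusted p = 1.85e-05) and CDT1 (0.52 ± 0.11, adjusted p = 0.00138) were higher in 5-FU by the largest amounts. POLD1 was 0.37 and CDT1 0.20 with the GC correction. POLA1 (-1.30 ± 0.06, adjusted p = 1.47e-09), CDC7 (-0.52 ± 0.08, adjusted p = 8.54e-05) and GINS1 (-0.50 ± 0.09, adjusted p = 2.13e-04) were lower in 5-FU. POLA2, RFC1 and DTL were called in opposite directions by the single drugs against vehicle, where 6.30% of all genes tested were, a share near that of the 45 genes. For all 3, the alternatives given with each gene removed at least 1 of the 2 calls. Each also differed between the single drugs (0.46, -0.46 and -0.43 for 5-FU minus chloroquine). MCM7, MCM10, GINS4 and RFC3 fell in both and were not called between them, with -0.04, 0.00, 0.00 and 0.01 for 5-FU minus chloroquine and 95% intervals of -0.16 to 0.09, -0.12 to 0.12, -0.16 to 0.17 and -0.10 to 0.12. With the GC correction MCM7 (-0.20) and RFC3 (0.14) lay outside these intervals and were called, as they were in the 5 libraries with COL1A2 alone. Among all genes tested, library size as the only scaling gave 6449 higher and 4341 lower in 5-FU, against 5296 and 5388 with TMM, and among the 45 genes it gave 18 and 10.

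Some genes lay below or above both single drugs in the combination. In the combination 10 genes were lower than in 5-FU and also lower than in chloroquine: ORC1, MCM4, MCM7, CDC45, GINS4, POLE, TIMELESS, CHAF1B, UHRF1 and DTL. Among all genes tested, 8.03% were lower than in both. For 3 of the 45, GMNN, PRIM1 and RPA3, the combination was higher than in each single drug, where 7.58% of all genes tested were, a share near that of the 45 genes. Without the 5 libraries with COL1A2, which left 1 chloroquine library, MCM4, TIMELESS and UHRF1 were no longer called lower than in chloroquine and GMNN and RPA3 no longer called higher. GINS4 lost both calls without combination 2. UHRF1 lost the call against chloroquine without chloroquine 1, chloroquine 3, combination 1 or combination 2 and with library size as the only scaling. GMNN lost it without vehicle 2, vehicle 3, chloroquine 1, chloroquine 2, combination 2 or combination 3, with no filter and with the replicate block. MCM4 was not called lower than in 5-FU with no filter. For PRIM1 and RPA3 that placed the combination above vehicle, and for GMNN it left the combination between the single drugs and vehicle. Of the 10 lower genes, POLE and TIMELESS rose in each single drug and DTL in chloroquine. TIMELESS was not called against vehicle in the combination.

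The interaction asks whether the combination equals the sum of the single-drug changes on the log2 scale. It was called for 17 of 45 genes, 11 higher and 6 lower than the sum, where 20.6% and 19.3% of all genes tested were so called. The share of the 45 genes called in either direction was thus near that of all genes tested. POLE had the largest difference of the 45, with -1.17 ± 0.09 (adjusted p = 4.26e-07), and it fell in the combination and rose in each single drug. DTL (-0.71 ± 0.08, adjusted p = 2.14e-05) and POLD1 (-0.60 ± 0.15, adjusted p = 0.00491) were the next lowest, and they were -0.85 and -0.21 with the GC correction, against -0.97 for POLE. GINS1 (0.70 ± 0.12, adjusted p = 3.91e-04), GMNN (0.62 ± 0.07, adjusted p = 1.38e-05) and DBF4 (0.54 ± 0.12, adjusted p = 0.00220) were the highest, and each fell in both single drugs and less in the combination than their sum. With the GC correction the falls of GINS1, GMNN and DBF4 in 5-FU against vehicle were smaller, at -0.72, -0.39 and -0.28. None of the 6 MCM2 to MCM7 genes was called, with values between -0.13 and 0.13, and POLA1 had 0.00 ± 0.09. Some of these 6 were called under alternatives, namely MCM4 and MCM7 with library size as the only scaling or a filter at 10 CPM, MCM3 with the GC correction (0.15), MCM6 with DESeq2 or without 5-FU 3, MCM4 without combination 3, MCM7 without 5-FU 2, and MCM4 and MCM6 in the 5 libraries with COL1A2 alone. The 3 RPA genes were all above the sum, with 0.19, 0.20 and 0.44 for RPA1, RPA2 and RPA3. With library size as the only scaling the median of all genes tested was -0.14 and 5 of the 45 genes were higher and 13 lower than the sum, when 2379 and 5063 of all genes tested were, against 4019 and 3772 with TMM. Under that scaling RPA1 and RPA2 were no longer called. Without chloroquine 1, 7 genes were higher than the sum. Without the 5 libraries with COL1A2, 10 of the 17 calls kept their direction and ORC1, ORC6, GINS2, PRIM1, PCNA, RPA1 and RPA2 were lost. POLE was -1.16, DTL -0.59 and POLD1 -0.65 without those libraries.

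**Figure D4:**
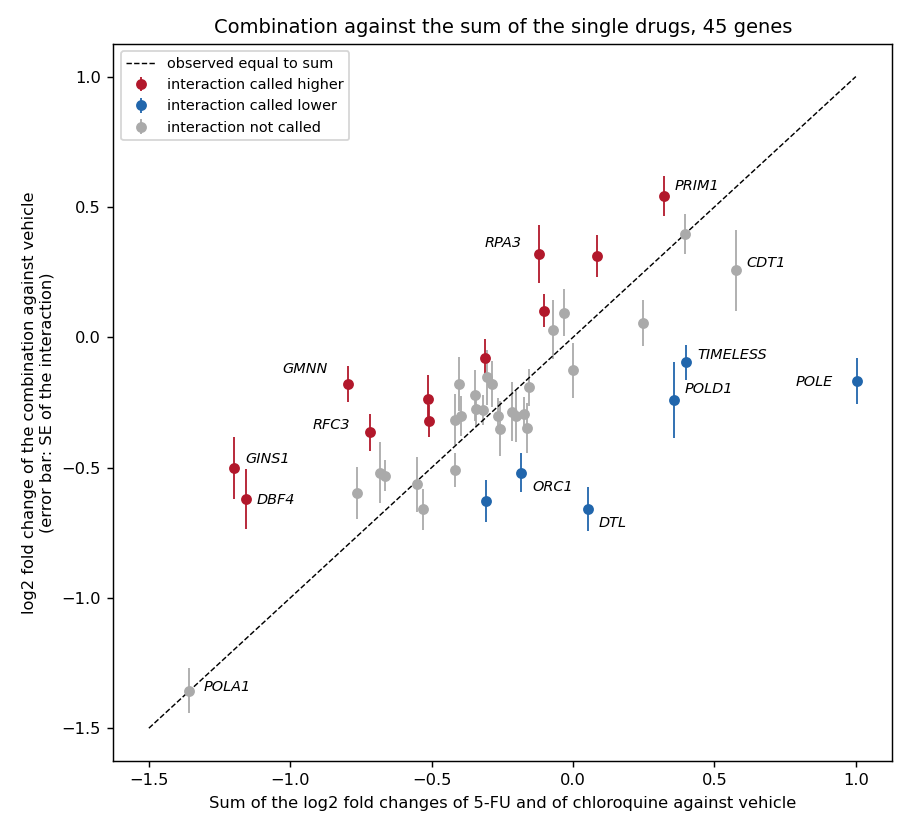
Log2 fold change of the combination against vehicle (vertical axis, with the SE of the interaction) against the sum of the log2 fold changes of 5-FU and of chloroquine (horizontal axis), for 45 genes. Points on the dashed line equal the sum, and the 11 red and 6 blue points are called above and below it. POLE lies farthest below the line and GINS1 farthest above it.

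Ratios of raw counts within a library do not depend on the scaling between libraries, though they are not corrected for gene length, so only their change between groups is described. The pairs were picked after the values were seen, and no test is given. The ratio of PRIM1 to POLA1 was 1.47 ± 0.18 in the combination, 1.15 ± 0.04 in 5-FU, 0.423 ± 0.004 in chloroquine and 0.391 ± 0.025 in vehicle (SD, n = 3, 3, 3 and 4). The ratio of POLE to POLE2 was 9.67 ± 0.40 in the combination, 17.4 ± 3.7 in 5-FU, 10.2 ± 0.8 in chloroquine and 7.18 ± 0.26 in vehicle. For POLE and POLE2, all treated libraries lay above vehicle and 5-FU was highest. The ratio of POLD1 to POLD2 was 1.38 ± 0.01 in the combination, 2.40 ± 0.23 in 5-FU, 1.09 ± 0.03 in chloroquine and 1.14 ± 0.06 in vehicle. The ratio of CDT1 to GMNN was 1.27 ± 0.15 in the combination, 1.94 ± 0.53 in 5-FU, 1.19 ± 0.02 in chloroquine and 0.937 ± 0.037 in vehicle. Every treated library had more CDT1 counts per GMNN count than any vehicle library. The ratio of CDC7 to DBF4 was 3.59 ± 0.23 in the combination, 2.95 ± 0.11 in 5-FU, 5.25 ± 0.21 in chloroquine and 2.85 ± 0.16 in vehicle, and chloroquine stood above all other libraries.

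**Figure D5:**
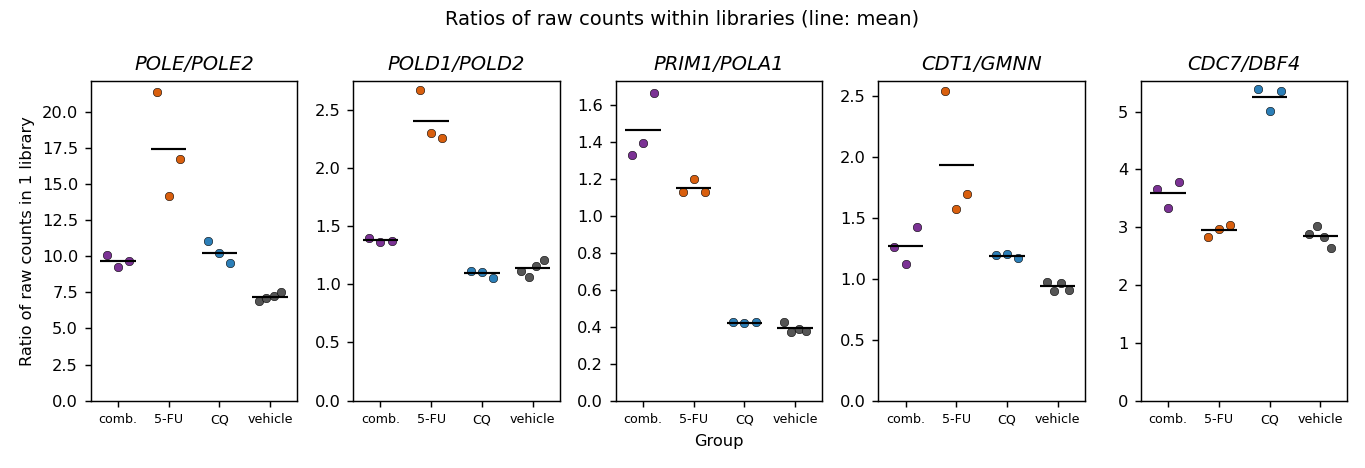
Ratios of raw counts of 5 gene pairs within each library (points) with the group mean (line), for 3 combination (comb.), 3 5-FU, 3 chloroquine (CQ) and 4 vehicle libraries. PRIM1 to POLA1 is high in both conditions with 5-FU, POLE to POLE2 and POLD1 to POLD2 are highest in 5-FU, and CDC7 to DBF4 is highest in chloroquine.

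The 5-FU values moved with the base composition of transcripts. Across the 45 genes, Pearson's r between transcript GC content and log2 fold change was 0.43 for 5-FU against vehicle, -0.53 for the combination against 5-FU and -0.47 for the interaction, against 0.01 for the combination and 0.05 for chloroquine against vehicle. These points share the same libraries and are given as a description. Across 18760 tested genes with a transcript the same values were 0.21, -0.34 and -0.28. By library, r of the 45 genes' deviation from vehicle with GC content was 0.65 in 5-FU 1, 0.15 in 5-FU 2 and 0.36 in 5-FU 3, and between -0.21 and 0.35 in the other 10 libraries. The library 5-FU 1 was also the highest of the 5-FU libraries for POLE, POLD1, CDT1, MCM5 and MCM2. Its part in these results was not tested beyond the values without it and with the correction, under which POLE in 5-FU was 0.59 and 0.51, and POLA1 -1.33 and -1.22. With the correction 35 of 35 calls in the combination, 28 of 33 in 5-FU and 22 of 22 in chloroquine kept their direction. The correction also added calls, of CDT1, PRIM2, POLD1, RFC1 and RPA2 in the combination, of MCM2, WDHD1, RFC2, RFC5, TIPIN, CHAF1A and UHRF1 in 5-FU, and of MCM2, CDC7, GINS2, POLD1, POLD2, POLE2, RPA2, UHRF1 and SLBP in chloroquine. In the interaction it kept 15 of 17 calls, lost ORC6 and PRIM1 and added 8.

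Exons of 12 of the 45 genes overlap those of a gene on the opposite strand in GENCODE 29, among them MCM2, MCM7, DBF4, PRIM1, RFC4, RFC5, RPA1 and RPA3. Exons of TIPIN, POLA2, POLD1, POLD3 and CHAF1B overlap only those of a gene on the same strand, by up to 579, 444, 133, 123 and 89 bases. Strand cannot separate the reads of these. The sources used here do not say whether strand was used in counting, so reads in the overlapping bases cannot be assigned to 1 gene. The longest overlap was between 7 bases (GINS2) and 814 bases (GINS4).

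Further genes of replication and of mitosis were described by their counts and medians. Of 35 further replication genes, 15 fell and 9 rose in the combination, where 27.2% of all genes tested fell and 28.1% rose. In 5-FU, 10 fell and 11 rose, where 29.5% of all genes tested fell and 30.8% rose. In chloroquine, 12 fell and 5 rose, where 19.1% of all genes tested fell and 20.3% rose. The median log2 fold change of the 35 genes was -0.11 in the combination, -0.02 in 5-FU and -0.05 in chloroquine. LIG1, which joins lagging strand fragments, fell in the combination (-1.07 ± 0.06), as did CHTF18 of an alternative clamp loader (-0.75 ± 0.11). POLD4, the smallest subunit of polymerase delta, rose in the combination (1.08 ± 0.15), 5-FU (1.10 ± 0.15) and chloroquine (0.42 ± 0.16), and RNASEH2B, a subunit of ribonuclease H2, rose in the combination (0.60 ± 0.07). In 5-FU, TOP1, a topoisomerase that relaxes DNA, fell (-0.79 ± 0.06), as did the histone chaperone gene NASP (-0.63 ± 0.05), and the helicase gene RECQL4 rose (0.98 ± 0.10). In chloroquine CINP (-0.60 ± 0.07) and RNASEH2C (-0.42 ± 0.11) fell and TICRR, a factor of origin firing, rose (0.36 ± 0.06).

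Of 25 mitotic genes, 15 fell and 1 rose in the combination, 15 fell and 2 rose in 5-FU, and 17 fell and 2 rose in chloroquine. Their median log2 fold changes were -0.34, -0.28 and -0.36 in that order. Among all genes tested, 27.2% fell and 28.1% rose in the combination, 29.5% and 30.8% in 5-FU, and 19.1% and 20.3% in chloroquine. In the combination the kinesin gene KIF20A (-1.01 ± 0.06) and the kinase gene PLK1 (-1.01 ± 0.07) had the lowest values and NDC80 of the kinetochore rose (0.27 ± 0.07). In 5-FU, HMMR (-0.89 ± 0.10) and BUB1B (-0.88 ± 0.06) fell and NUSAP1 (1.26 ± 0.37) and AURKB (0.17 ± 0.07) rose. NUSAP1 was counted at a low level, with 1.36, 0.828 and 1.24 CPM in 5-FU and 0.220 to 0.619 CPM in vehicle. In chloroquine, CDC20 (-0.89 ± 0.07) and PLK1 (-0.83 ± 0.07) fell and MKI67 (0.38 ± 0.10) and CENPF (0.23 ± 0.08) rose.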

How the data were processed

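Per the labels' protocols, 13 TE11 libraries were made from total RNA with NEBNext Ultra II, a directional kit. The table the authors deposited holds raw counts for human gene symbols, and every column matched 1 library. Per the submitters' processing notes, DESeq and the mouse build GRCm38 were named, with no version or role. The sources used here give no aligner, counting tool or annotation, so no coordinates were taken from the table.

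The 45 genes, the other gene lists and the rule for named genes were chosen with earlier results of these data known. Values per library were given for the 3 highest and 3 lowest log2 fold changes among called genes in each comparison and for 15 set genes, and the text also names other members. Of the other lists, the 2 called genes at each end per comparison with vehicle were named, with CDKN1A and E2F1.

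From the counts, filterByExpr of edgeR 4.0.16 (R 4.3.3) kept 19514 genes, which held at least 99.83% of each library's counts. Totals ran from 17834539 to 23679833. TMM scaling and 1 quasi-likelihood model with a mean per group were fitted to all 13 libraries, and SEs were derived from its F statistics. The 7 contrasts were the 6 differences between groups and the interaction. The procedure was tested on simulated data first. Transcript GC content came from GENCODE 29 by symbol (18760 of the genes tested), and promoters came from RefSeq (GRCh38.p14). Protein sequences were not analysed here.

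Alternatives were RLE size factors, library size only, DESeq2 1.42.0, limma-voom (limma 3.58.1), no filter, a minimum of 10 CPM in 3 libraries, a fit of the compared groups alone, a block for the replicate number, a size threshold, a term for the 5 libraries with COL1A2 or leaving them out or keeping them alone, and leaving out each library. The correction of each library for transcript GC content, by a loess curve, alone and with the replicate block, was chosen after seeing the data. Of the group pairs, the combination and 5-FU alone had a residual correlation above 0.1 at each replicate number (0.341, 0.743 and 0.339), so only those 6 libraries were treated as paired. What a number shares is not in the labels, and both replicate 2 libraries hold COL1A2. The block over all 13 libraries was run as an alternative and is not a check of pairing. Vehicle 4 is the only library with its number, and same-numbered libraries of other group pairs had residual correlations as low as -0.448. No pair of libraries of a group agreed within sampling noise (chi-square per gene of 1.68 or more).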

Additional observations from a re-analysis of the deposited data

Results flagged for a closer look

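Dixon's criterion was applied to the vehicle libraries of each of the 45 genes and to no other group. In 2 cases a single vehicle library stood apart from the rest of its group. The criterion flags about 1 in 20 groups by chance, and the 2 cases are near that rate. DBF4 had 80.5 CPM in vehicle 4, and the other vehicle libraries had 71.9, 72.3 and 71.0 CPM. POLA1 had 121 CPM in vehicle 1, and the other vehicle libraries had 134, 136 and 135 CPM. DBF4 in vehicle 4 was above every treated library, and POLA1 in vehicle 1 was below every chloroquine library and above every 5-FU and combination library.

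By the interaction term of edgeR, the effect of 1 drug differed with and without the other for 17 genes. Of these, 11 were called above and 6 below the sum, where 20.6% and 19.3% of all genes tested were. The share of the 45 genes called in either direction was near that of all genes tested. The log2 value was negative, so that the combination lay below the sum of the single drugs, for POLE (-1.17), DTL (-0.71), POLD1 (-0.60), TIMELESS (-0.50), ORC1 (-0.34) and CDC45 (-0.32). It was positive for GINS1 (0.70), GMNN (0.62), DBF4 (0.54), RPA3 (0.44), RFC3 (0.35), GINS2 (0.28), ORC6 (0.23), PCNA (0.23), PRIM1 (0.22), RPA2 (0.20) and RPA1 (0.19). The calls of ORC6 and PRIM1 were lost with library size as the only scaling, with no filter and with the GC correction. That of ORC6 was kept without vehicle 4, chloroquine 3 or 5-FU 2 and lost without any other 1 library. GINS2 lost its call without vehicle 1, vehicle 2, chloroquine 1, chloroquine 2 or combination 3 and with library size as the only scaling.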

How the results depend on the processing

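With library size as the only scaling, 8 members rose in the combination against vehicle (4 with TMM), 18 rose and 11 fell in 5-FU (8 and 25), 8 rose in chloroquine (5), and 5 were above and 13 below the sum of the single drugs (11 and 6). A filter at 10 CPM gave 7 risen in the combination, 13 risen and 16 fallen in 5-FU, and 5 above and 12 below the sum. With no filter 3 rose in chloroquine and 6 were above the sum, and RLE size factors also gave 3 risen in chloroquine. The GC correction gave 7 risen in the combination. Without the 5 libraries with COL1A2, 2 rose and 11 fell in chloroquine (17 with them), 4 were higher in the combination than in chloroquine (8) and 5 were above the sum, and in those 5 alone 11 were below the sum. At a log2 fold change of at least 0.5 in size, 1 rose and 12 fell in the combination, 3 and 4 in 5-FU, 0 and 1 in chloroquine, 0 were higher and 3 lower in the combination than in 5-FU, 0 and 4 than in chloroquine, 3 and 3 in 5-FU against chloroquine, and 3 lay above and 3 below the sum. Leaving out 1 library at a time gave 2 to 6 risen in chloroquine and 7 to 12 above the sum. The other counts of members stayed within 1.5 times the main count under the alternatives run, and limma-voom kept every call of the 45 genes in the 7 comparisons. The causes of these shifts were not tested.

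With the replicate block over all libraries 3 members rose in chloroquine. In the combination and 5-FU libraries alone, the replicate block kept 22 of 23 calls, lost RPA1 and gained CDT1. With the GC correction it kept 22 of 23, lost MCM2 and gained 10. The labels do not state that libraries with the same number are paired, and the block rests on residual correlations in these data.

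No log2 fold change of a member turned direction with a call in the combination or chloroquine against vehicle or in the interaction. In 5-FU against vehicle, library size as the only scaling gave 0.17 for ORC1, 0.10 for MCM4, 0.016 for PRIM2, 0.0036 for POLD3, 0.15 for RFC2, 0.047 for RPA1, 0.18 for CHAF1A, 0.031 for CHAF1B, 0.17 for UHRF1 and 0.0046 for DTL, all below 0 with TMM. In the 5 libraries with COL1A2 alone, where the combination, 5-FU and vehicle have 1 library each that is assumed to vary like the others, 5-FU against vehicle gave -0.10 for MCM5, 0.058 for PRIM2 and 0.14 for RPA3, 5-FU against chloroquine gave -0.13 for MCM2 and 0.11 for RPA3, the combination against 5-FU gave -0.12 for CDC7 and -0.12 for SLBP, and the combination against chloroquine gave -0.086 for MCM5. With the GC correction MCM2 was -0.12 in 5-FU against chloroquine.

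Among other replication genes, library size as the only scaling gave 7 fallen in chloroquine (12 with TMM), 17 risen in 5-FU (11) and 6 above the sum (13), the block with GC correction gave 16 lower in the combination than in 5-FU (10), leaving out the 5 libraries gave 6 higher in the combination than in chloroquine (11), and leaving out 5-FU 2 gave 8 higher in the combination than in 5-FU (5). Among mitotic genes, library size as the only scaling gave 3 risen in the combination (1), 5 risen in 5-FU (2) and 9 above the sum (14). Mitotic genes risen were 2 in the combination with the replicate block, 1 in chloroquine with RLE size factors or without the 5 libraries, and in 5-FU 4 with the 10 CPM filter and 1 with no filter or in the 5 libraries alone. Mitotic genes lower in the combination than in chloroquine were 8 with the GC correction and 9 in the 5 libraries alone (5), those higher in the combination than in 5-FU were 7 without the 5 libraries and 9 without 5-FU 2 (3), those lower were 4 without combination 2 (8), and 1 was below the sum with the 10 CPM filter and with or without the 5 libraries alone (2). Every member had at least 373 counts in each library.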

Other observations

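Among the 45 genes the combination values also moved with transcript length, which is not a property of the rule that chose them. Pearson's r was taken between the log2 fold change and the logarithm of transcript length. It was -0.37 for the combination against vehicle, -0.50 against chloroquine, -0.48 against 5-FU and -0.52 for the interaction. Spearman's rho was -0.30, -0.45, -0.43 and -0.50 in the same order. Across the 18760 tested genes with a transcript, r was -0.02, -0.06, 0.01 and -0.03. In the single drugs against vehicle, r across the 45 genes was 0.03 in 5-FU and 0.21 in chloroquine. These are descriptions across genes that share the same libraries, and genes are not independent replicates.

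Further ratios of raw counts within a library, picked after the values were seen, set the groups apart as well. The ratio of POLE to POLA1 was 3.86 ± 0.27 in the combination, 6.72 ± 0.71 in 5-FU, 2.18 ± 0.12 in chloroquine and 1.69 ± 0.05 in vehicle (SD, n = 3, 3, 3 and 4), with no overlap between groups. RFC4 to RFC1 was 0.823 ± 0.072 in the combination, 1.04 ± 0.05 in 5-FU, 0.577 ± 0.019 in chloroquine and 0.667 ± 0.045 in vehicle. MCM5 to MCM6, subunits of the same helicase, was 0.893 ± 0.062 in the combination, 1.202 ± 0.178 in 5-FU, 0.685 ± 0.019 in chloroquine and 0.788 ± 0.026 in vehicle, with no overlap between groups.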
